A study of Mus musculus with 20 samples.

Results

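The forkhead (Fox) genes encode transcription factors that share the forkhead DNA-binding domain. Members were all genes whose symbol is Fox, a letter from a to s and a number. This gave 42 of the 25965 genes in the chromatin table and 40 of the 25067 genes in the RNA table. Foxc2 and Foxp3 were in the chromatin table alone, and 3 other rows that begin with Fox (Foxf1a, Foxred1 and Foxred2) did not match. The cells were mouse germline stem cells, a culture model of spermatogonial stem cells, kept on a layer of feeder fibroblasts. Knockout cells (Kmt2b FC/FC) arose from floxed Kmt2b cells carrying Rosa26-CreERT2 by adding 1 μM 4-hydroxytamoxifen (4-OHT), and control cells (Kmt2b F/F, also with Rosa26-CreERT2) received ethanol instead. Both were harvested on day 6, so loss of Kmt2b and exposure to 4-OHT cannot be told apart. There were 2 knockout and 2 control libraries, from duplicate cell lines, for each of H3K4me3, H3K27me3, input DNA and RNA. For H3K9me3 there were 2 control libraries and 2 separate inputs, and the treatment of those cells is not given. All p-values measure the spread between these libraries only.

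Forkhead factors bind DNA through a winged-helix fold, and the FoxA proteins among them can open closed chromatin. Many members direct the making of one embryonic organ or cell type, such as Foxa2 in endoderm, Foxe1 in the thyroid or Foxd1 in the kidney. Others act in most cells. FoxO proteins are held in the cytoplasm by insulin and AKT signalling, and in the testis Foxo1 is needed to maintain spermatogonial stem cells. Foxm1 drives genes of mitosis. Kmt2b is a methyltransferase that places H3K4me3 at CpG-rich promoters, and H3K27me3 is the repressive mark of Polycomb complexes. A promoter that carries both is called bivalent.

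The promoters of 6 members, chosen with their results known, are printed as examples. Foxf2 and Foxb2 had the largest decreases of H3K4me3, one with many CpG dinucleotides and the other with few. Foxd3 and Foxa2 had more RNA in the knockout, Foxo1 is a highly expressed member, and Foxp3 carried neither mark. Sequences are from RefSeq (GRCm38.p6, the build called mm10 in the processing notes), 250 bases before to 50 bases after the start, 5′ to 3′ on the strand of the gene. Capitals mark CG dinucleotides.
Foxf2 (chr13:31625566-31625865, plus strand): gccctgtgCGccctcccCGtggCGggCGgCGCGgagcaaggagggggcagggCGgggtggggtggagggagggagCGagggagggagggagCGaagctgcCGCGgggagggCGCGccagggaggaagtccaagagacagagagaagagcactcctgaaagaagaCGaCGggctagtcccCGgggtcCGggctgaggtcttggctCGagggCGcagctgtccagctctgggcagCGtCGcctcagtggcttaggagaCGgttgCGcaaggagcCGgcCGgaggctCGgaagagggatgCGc
Foxb2 (chr19:16873781-16874080, minus strand): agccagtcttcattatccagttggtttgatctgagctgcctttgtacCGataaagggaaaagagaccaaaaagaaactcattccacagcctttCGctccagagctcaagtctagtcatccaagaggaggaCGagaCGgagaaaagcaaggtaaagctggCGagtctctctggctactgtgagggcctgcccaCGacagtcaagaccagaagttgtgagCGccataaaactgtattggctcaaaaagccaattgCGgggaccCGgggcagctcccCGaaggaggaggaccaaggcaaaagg
Foxd3 (chr4:99656049-99656348, plus strand): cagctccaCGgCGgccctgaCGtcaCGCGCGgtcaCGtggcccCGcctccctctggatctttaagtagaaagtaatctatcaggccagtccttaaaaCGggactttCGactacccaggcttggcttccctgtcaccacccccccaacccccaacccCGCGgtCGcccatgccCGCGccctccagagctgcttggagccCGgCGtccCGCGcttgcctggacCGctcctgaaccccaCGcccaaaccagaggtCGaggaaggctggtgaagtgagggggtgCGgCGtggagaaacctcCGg
Foxa2 (chr2:148046920-148047219, minus strand): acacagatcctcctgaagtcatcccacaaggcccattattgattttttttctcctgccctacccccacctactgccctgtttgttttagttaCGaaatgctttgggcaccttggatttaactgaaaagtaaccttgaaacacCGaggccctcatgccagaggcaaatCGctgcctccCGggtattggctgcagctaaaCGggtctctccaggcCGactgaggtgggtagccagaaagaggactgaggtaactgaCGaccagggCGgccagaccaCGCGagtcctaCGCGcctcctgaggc
Foxo1 (chr3:52268087-52268386, plus strand): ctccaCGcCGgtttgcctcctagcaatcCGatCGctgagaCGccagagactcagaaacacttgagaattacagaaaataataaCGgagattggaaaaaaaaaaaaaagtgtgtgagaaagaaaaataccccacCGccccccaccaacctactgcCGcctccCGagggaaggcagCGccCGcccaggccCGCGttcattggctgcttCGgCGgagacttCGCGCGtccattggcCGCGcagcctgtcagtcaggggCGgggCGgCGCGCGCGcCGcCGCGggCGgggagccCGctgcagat
Foxp3 (chrX:7579426-7579725, plus strand): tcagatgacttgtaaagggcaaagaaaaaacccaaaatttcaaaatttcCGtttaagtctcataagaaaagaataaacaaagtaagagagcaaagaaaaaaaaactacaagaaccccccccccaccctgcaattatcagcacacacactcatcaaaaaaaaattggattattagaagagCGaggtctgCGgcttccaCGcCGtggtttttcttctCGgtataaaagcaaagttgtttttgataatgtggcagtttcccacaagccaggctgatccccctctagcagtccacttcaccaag
These 300 bases hold 27 CpG dinucleotides at Foxf2, 10 at Foxb2, 25 at Foxd3, 12 at Foxa2, 31 at Foxo1 and 6 at Foxp3. The place and size of the deposited gene windows are not stated, so the windows need not be these bases.

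Depth was uneven. Knockout replicate 1 of H3K4me3 had 3830045 mapped reads, and the other H3K4me3 libraries reached 18035122. Reads in the gene windows were 20.7% of its mapped reads. They were 27.2% in knockout replicate 2 and 25.6% and 29.0% in the control libraries. H3K27me3 libraries had 10538531 to 14810135, matched inputs 10967790 to 14405261 and RNA libraries 38458010 to 45771857 mapped reads. Kmt2b, listed by its older symbol Wbp7, had 131 and 185 RPM (reads relative to a library's mapped total) of RNA in knockout cells, against 142 and 150 RPM in control cells. Its log2 change of 0.09 (SE 0.16) did not pass limma's test (Benjamini-Hochberg adjusted p = 0.798). Reads summed over the whole gene do not check a deletion of part of it. Germ cell markers summed to 1930 and 2210 RPM of RNA in knockout cells and to 1950 and 1900 RPM in control cells over 12 genes, none of them under 0.1 RPM.

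In control cells the forkhead windows divided into marked groups. A window was taken to carry H3K4me3 at a log2 ratio over input of at least 1.5 in both libraries, and H3K27me3 where both ratios reached 1, after 0.5 RPM was added to each value. By this rule 16 of 42 windows (38.1%) were bivalent, against 7.68% of all windows. Another 18 windows (42.9%, against 49.9% of all) carried H3K4me3 only, 2 carried H3K27me3 only, and 6 carried neither. These shares are descriptions and were not tested. The bivalent members included genes of embryonic organs: Foxa1 and Foxa2 (endoderm), Foxb1 and Foxb2 (neural tube), Foxd1, Foxd2 and Foxd3 (kidney stroma, mesenchyme and neural crest), Foxe1 and Foxe3 (thyroid and lens), Foxf2 (gut and palate mesenchyme), Foxi1 and Foxi2 (ectoderm, with Foxi1 in the inner ear), Foxl2 (ovary), Foxp2 (brain) and Foxq1 (hair). Their RNA was low, with a mean over all 4 libraries of at most 2.83 RPM. The H3K4me3-only members held the FoxO genes Foxo1, Foxo3, Foxo4 and Foxo6, the mitotic regulator Foxm1, and Foxk1, Foxk2, Foxp1, Foxp4, Foxj2, Foxn2 and Foxr1. They also held Foxa3, Foxc1, Foxc2, Foxi3, Foxj1 (motile cilia) and Foxn4 (retina), and 12 of the 17 in the RNA table reached a mean of 10 RPM. Foxs1 and Foxd4 carried H3K27me3 only. Foxh1 (Nodal signalling), Foxn1 (thymus epithelium), Foxp3 (regulatory T cells), Foxr2, Foxj3 and Foxn3 carried neither.

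**Figure D1:**
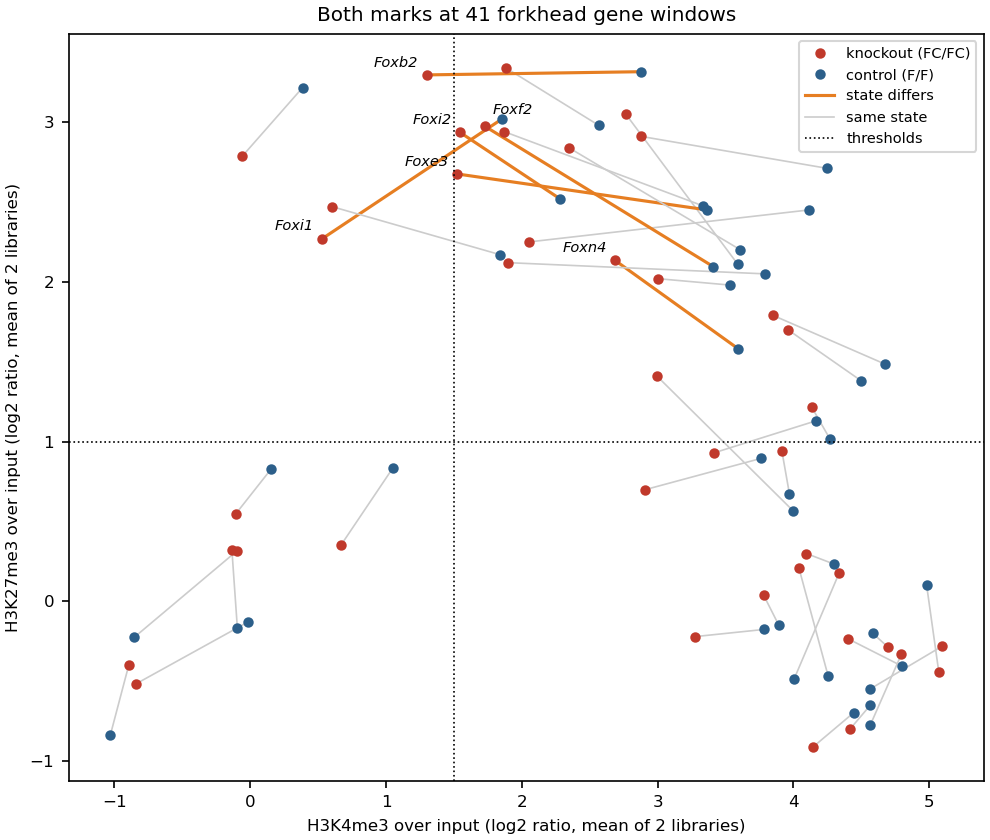
Each of 41 forkhead windows is drawn as a knockout (red) and a control (blue) point, joined by a line. The axes give the log2 ratio over input of H3K4me3 and of H3K27me3, each the mean of 2 libraries, dotted lines mark 1.5 and 1, and the 6 labelled windows with orange lines had different states. A state needed both libraries past a threshold, so Foxf2, Foxi2 and Foxe3 lie beyond the vertical line by their mean although 1 knockout library was below 1.5.

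The question of the series is where Kmt2b is needed for H3K4me3. Among the 36 forkhead windows whose mean reached 1 RPM, 8 (22.2%) were called lower in knockout cells by limma at an adjusted p under 0.05, against 9.9% of the 15624 windows tested, and 0 were called higher, against 0.0512%. At an unadjusted p under 0.05, 13 were lower and 0 higher, against 24.7% and 0.314% of all windows tested, and limma voom on whole reads called 12 (33.3%) lower, against 16.6% of all windows, and 0 higher. Both knockout libraries lay below both control libraries at 24 of the 36, against 42.8% of all windows tested (Foxi1 and Foxh1 passed the filter through the control libraries alone), and above both at 2 (Foxk1 and Foxm1), against 8.98%. The median log2 change over the 36 was -0.56, beside -0.26 over all windows tested. The 8 were Foxf2, Foxb2, Foxe1, Foxa1, Foxd1, Foxd2 and Foxl2, all bivalent in control cells, and Foxn4. In all 8, both knockout libraries lay below both control libraries, which adds no support because the same libraries gave the calls.

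Foxf2, which shapes gut and palate mesenchyme (mm10 chromosome 13, 31625816 to 31631403), had 1.31 and 5.55 RPM of H3K4me3 in knockout cells, against 9.27 and 12.5 RPM in control cells. Knockout replicate 1 was the lowest of the 4, and its value came from 5 reads. The log2 change was -2.00 (SE 0.53; limma adjusted p = 0.00947). Without knockout replicate 1 it was -0.96 and no longer called (adjusted p = 0.0947). Foxb2 (chromosome 19, 16872316 to 16873830) had 1.83 and 2.05 RPM in knockout cells, against 6.47 and 8.26 RPM in control cells. The knockout values came from 7 and 34 reads, and 7 reads leave a wide counting error. The knockout libraries stood close together here, and the log2 change was -1.92 (SE 0.59; adjusted p = 0.0255), or -1.83 and still called without knockout replicate 1.

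Foxe1, a factor of the thyroid (chromosome 4, 46343609 to 46346412), gave the tightest pairs. It had 3.13 and 3.2 RPM in knockout cells, from 12 and 53 reads, and 10.1 and 10.3 RPM in control cells. The log2 change was -1.69 (SE 0.52; limma adjusted p = 0.0247). Foxa1, a factor that can open chromatin in endoderm (chromosome 12, 57540631 to 57546121), had 2.87 and 5.43 RPM in knockout cells and 11.4 and 12.5 RPM in control cells. Its log2 change was -1.59 (SE 0.48; adjusted p = 0.0231). Foxd1 of the kidney stroma (chromosome 13, 98354245 to 98356705) had 3.66 and 7.6 RPM in knockout cells and 14.9 and 15 RPM in control cells. Its log2 change was -1.50 (SE 0.44; adjusted p = 0.0178). Foxe1, Foxa1 and Foxd1 were still called without knockout replicate 1, at -1.67, -1.13 and -0.97 on the log2 scale.

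Foxd2 (chromosome 4, 114906280 to 114908898) had 2.87 and 6.76 RPM in knockout cells, against 10.5 and 14 RPM in control cells, a log2 change of -1.46 (SE 0.47; limma adjusted p = 0.0316). Foxl2, which keeps ovarian granulosa cells from turning into testis-type cells (chromosome 9, 98955607 to 98958126), had 5.48 and 9.59 RPM in knockout cells, against 15.3 and 18 RPM in control cells. Its log2 change was -1.20 (SE 0.40; adjusted p = 0.0371). Foxn4, a factor of retinal interneurons (chromosome 5, 114254164 to 114273807), had 4.18 and 7.9 RPM in knockout cells, against 12.3 and 14.9 RPM in control cells. Its log2 change was -1.23 (SE 0.44; adjusted p = 0.0495). In all of them knockout replicate 1, the shallow library, was the lower knockout value, and without it none of the 3 was called, at -0.85 for Foxd2 (adjusted p = 0.118), -0.79 for Foxl2 (0.0758) and -0.77 for Foxn4 (0.13). Over all 36 members the number called lower was 4 without knockout replicate 1, 20 without knockout replicate 2 and 0 without either control replicate, beside 5.72%, 44.1% and 0.0% of all windows. Quantile normalization left 1 member called (2.78%, beside 3.81% of all windows), which was Foxn2 and not one of the 8.

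**Figure D2:**
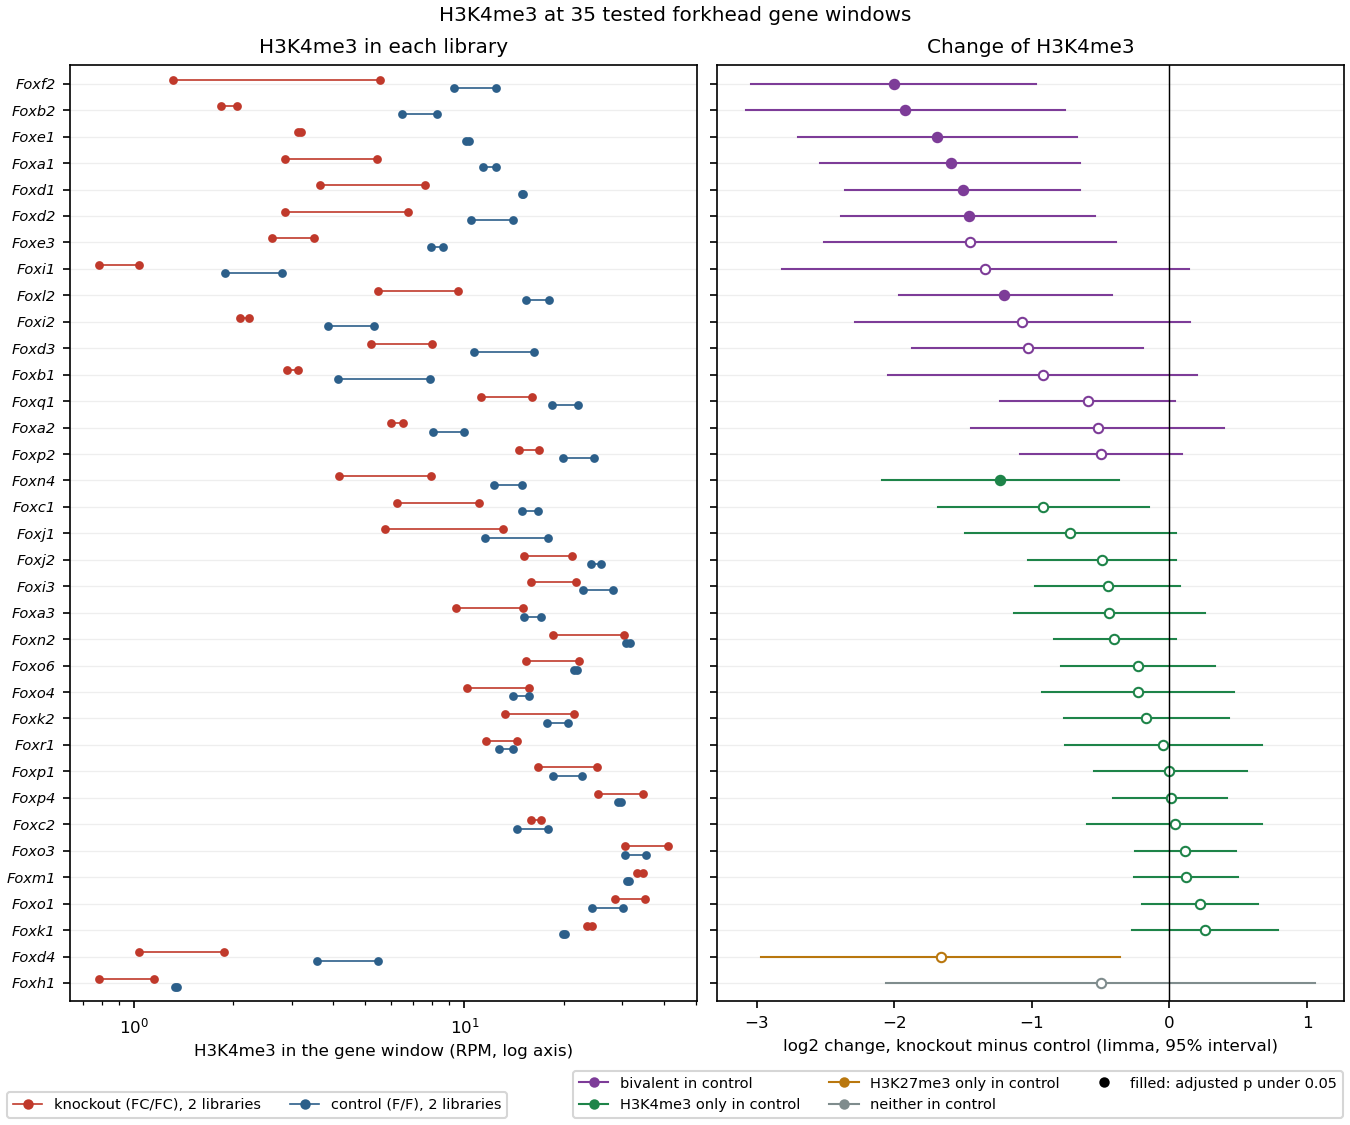
The left panel gives H3K4me3 (RPM, log axis) in each of 2 knockout (red) and 2 control (blue) libraries at 35 tested forkhead windows. The right panel gives the log2 change, knockout minus control, with its 95% interval from limma, coloured by the control state, with filled points for an adjusted p under 0.05. All bivalent windows drawn lie below 0, and under quantile normalization 4 of the 16 tested were above it.

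The decreases were unequal among bivalent members. All 16 had a log2 change below 0, from -2.00 at Foxf2 to -0.50 at Foxp2, and in all 16 both knockout libraries lay below both control libraries, beside 96.7% of all bivalent windows and 42.8% of all windows tested. Under quantile normalization 4 of them were above 0. The median was -1.4, beside -1.30 over all 1992 bivalent windows tested, and 7 of 16 (43.8%) were called, beside 43.7% of those windows. The bivalent forkhead windows thus had about the share and size of change of bivalent windows in general. Since the control libraries enter both the state and the test, the state was also set from knockout libraries. The 11 windows bivalent in knockout cells then had a median of -1.20, beside -1.02 over all such windows. Foxe3 of the lens had 2.61 and 3.5 RPM in knockout cells, against 7.91 and 8.59 RPM in control cells. Its log2 change of -1.45 missed the threshold (limma adjusted p = 0.0627).

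At expressed members whose windows carried H3K4me3 only, changes of H3K4me3 were mostly small. Foxj3 and Foxn3 also reached a mean RNA of 10 RPM, but their windows carried neither mark and were not tested. The 12 H3K4me3-only members with a mean RNA of at least 10 RPM had a median log2 change of -0.02, from -0.49 at Foxj2 to 0.26 at Foxk1, and none was called, also with limma voom. Without knockout replicate 2 the median was -0.25 and 2 were called lower, Foxj2 and Foxn2, and without knockout replicate 1 it was 0.16 with 0 called. All windows of that kind had a median of -0.05 and 1.11% called lower. Foxo1 had 28.5 and 35.2 RPM of H3K4me3 in knockout cells and 24.3 and 30.2 RPM in control cells, and the ranges overlap. Foxo3 had 30.5 and 41.3 RPM in knockout cells and 30.5 and 35.3 RPM in control cells. Foxm1 had 33.2 and 34.6 RPM in knockout cells and 31.4 and 31.1 RPM in control cells. Their log2 changes of 0.22, 0.11 and 0.12 did not pass limma's test, with 95% intervals from -0.20 to 0.64, from -0.25 to 0.48 and from -0.26 to 0.50. Of the alternatives run, median centring was the one that called Foxo1 higher.

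The 5 H3K4me3-only members with less RNA lay lower. Foxn4, Foxc1, Foxj1, Foxi3 and Foxa3 had a median of -0.72, from -1.23 to -0.44, with 1 called, beside a median of -0.57 and 11.7% called over all such windows. In control replicate 1, Foxn4, Foxa3 and Foxj1 passed the log2 H3K27me3 ratio of 1, at 2.27, 1.48 and 1.37. In control replicate 2 they did not, at 0.89, 0.78 and 0.42. Foxc1 and Foxi3 passed it in neither. RPM of RNA is not divided by gene length, so the limit of 10 RPM does not sort genes by transcript number. Foxr1, Foxd1 and Foxc2 are examples of windows with like control levels of H3K4me3, and differences between them were not tested. Foxr1, an expressed member, had 14.4 and 11.6 RPM in knockout cells and 12.7 and 14 RPM in control cells. Its log2 change was -0.05 (95% interval -0.76 to 0.67). Foxd1, with 14.9 and 15 RPM in control cells, had the change of -1.50 given above (95% interval -2.36 to -0.65). Foxc2, a factor of lymphatic vessels that is not in the RNA table, had 15.9 and 17 RPM in knockout cells and 14.4 and 17.9 RPM in control cells. Its knockout values lay within the control range.

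State by state, 11 windows were bivalent in knockout cells, 17 carried H3K4me3 only, 8 carried H3K27me3 only and 6 carried neither. Of the 16 bivalent in control cells, 6 (37.5%) were H3K27me3 only in knockout cells, among them Foxf2, Foxb2, Foxe3, Foxi1 and Foxi2, beside 38.5% of all bivalent windows. These are crossings of a threshold, and at looser ratios of 1 and 0.5 the number of bivalent windows was 20 in knockout cells and 20 in control cells. Foxi2 had a log2 H3K4me3 ratio over input of 1.63 and 1.46 in knockout cells and 2.19 and 2.37 in control cells, so a single library just under 1.5 moved it. Foxb2 had 1.34 and 1.26 in knockout cells and 2.50 and 3.26 in control cells, with both knockout libraries under the threshold. Foxi1 had 0.88 and 0.18 in knockout cells and 2.09 and 1.62 in control cells, with both knockout libraries under the threshold as well. Foxe3 had 1.4 and 1.65 in knockout cells and 3.62 and 3.11 in control cells. Foxf2 had 0.84 and 2.61 in knockout cells and 2.99 and 3.83 in control cells. At Foxe3 and Foxf2 it was replicate 1, the shallow library, that fell under 1.5. Foxn4 went the other way, to bivalent, because its H3K27me3 ratio was 2.71 and 1.56 in knockout cells and 2.27 and 0.89 in control cells, where the last lies just under 1.

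H3K27me3 itself gave no call among forkhead windows in the fit on the deposited values. Of 24 windows that reached a mean of 1 RPM, 0 were called higher and 0 lower by limma, against 0.791% and 0.0% of the 4807 windows tested. At an unadjusted p under 0.05, 1 was higher and 0 lower, against 12.0% and 0.125% of all windows, and limma voom on whole reads also gave 0. The median log2 change was 0.39, beside 0.45 over all windows tested, and it was -0.19 with median centring and -0.06 with quantile normalization. It was 0.06 without knockout replicate 1, 0.68 without knockout replicate 2, 0.75 without control replicate 1 and 0.0 without control replicate 2. With the replicate number as a block, 4 of the 24 (16.7%) were called higher, Foxd3, Foxe3, Foxf2 and Foxc1, beside 25.1% of all windows. Median centring called 2 (8.33%) lower, Foxi1 and Foxb2, beside 4.2% of all windows, and 0 higher, beside 1.69%. In 5 of 24 (20.8%) both knockout libraries lay above both control libraries, against 36.9% of all windows, and in 0 both lay below, against 3.14%. Replicate 1 was above replicate 2 in 23 of the 24 members in knockout cells and in 22 of 24 in control cells.

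Foxc1, a factor of eye and skull mesenchyme, had the largest H3K27me3 change among members. It had 3.65 and 1.61 RPM in knockout cells, against 1.09 and 0.916 RPM in control cells, a log2 change of 1.28 (SE 0.56; limma adjusted p = 0.306). The 3 members highest over input in control cells were Foxb2, Foxs1 and Foxi1. Foxb2 had 11.5 and 7.31 RPM in knockout cells and 11.2 and 9.06 RPM in control cells. Foxs1 had 7.63 and 5.98 RPM in knockout cells and 8.28 and 5.95 RPM in control cells. Foxi1 had 5.94 and 2.94 RPM in knockout cells and 6.91 and 4.85 RPM in control cells. The ranges overlap in all 3. Foxb2 thus had less H3K4me3 in both knockout libraries, with an H3K27me3 change of -0.13 whose 95% interval ran from -1.22 to 0.95. The 6 windows that ended as H3K27me3 only had log2 changes in H3K27me3 from -0.47 at Foxi1 to 0.87 at Foxf2. None of them was called on the deposited values. Foxe3 and Foxf2 were called higher with the block, and Foxi1 and Foxb2 lower with median centring.

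**Figure D3:**
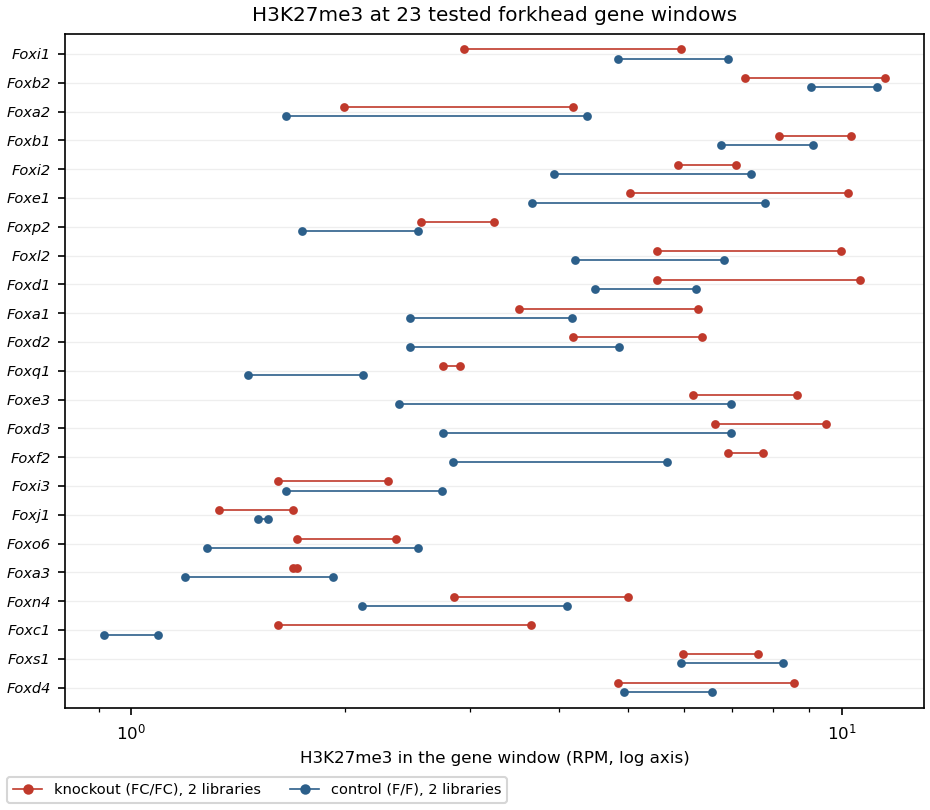
H3K27me3 (RPM, log axis) is shown in 2 knockout (red) and 2 control (blue) libraries at 23 tested forkhead windows. Knockout and control ranges overlap at most windows, and at Foxc1 both knockout libraries lie above both control libraries.

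RNA rose at 2 members. Of 20 forkhead genes that passed the filter (a mean log2 RPM of at least 0), 2 were called higher in knockout cells and 0 lower by limma, against 3.01% and 0.312% of the 14100 genes tested. At an unadjusted p under 0.05, 4 were higher and 0 lower, against 16.5% and 3.6% of all genes tested, and limma voom also called 0 lower. Foxa2, a master factor of endoderm (chromosome 2, 148042877 to 148046969), had 4.09 and 4.27 RPM in knockout cells, from 187 and 171 reads, against 1.87 and 1.1 RPM in control cells, from 72 and 49 reads. Its log2 change was 1.54 (SE 0.27; limma adjusted p = 0.0338), and the knockout libraries stood together above both controls. Foxd3, which acts in the epiblast and in neural crest (chromosome 4, 99656299 to 99658671), had 1.94 and 1.8 RPM in knockout cells, from 89 and 72 reads, against 0.598 and 0.654 RPM in control cells, from 23 and 29 reads. Its log2 change was 1.58 (SE 0.24; adjusted p = 0.0266). Foxd3 passed the filter through its knockout libraries alone, since its control values are under 1 RPM. Both genes were called whichever library was left out, and neither was called without the filter (adjusted p = 0.067 for Foxa2 and 0.0717 for Foxd3) or under quantile normalization (0.0919 and 0.0633). In a bulk sample, more cells of a type and more RNA per cell cannot be told apart, and the same holds for fewer cells and less RNA.

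At these promoters H3K4me3 was not called in either direction. At Foxa2 it was 6.01 and 6.51 RPM in knockout cells and 8.01 and 10 RPM in control cells, a log2 change of -0.52 that was not called (limma adjusted p = 0.575). At Foxd3 it was 5.22 and 7.96 RPM in knockout cells and 10.7 and 16.2 RPM in control cells, a log2 change of -1.03 (adjusted p = 0.0994). At both, both knockout libraries were the lower ones in H3K4me3 and the higher ones in RNA. Both windows were bivalent in knockout and in control cells. Feeder fibroblast markers summed to 467 and 599 RPM of RNA in knockout cells and to 424 and 454 RPM in control cells over 12 genes, none of them under 0.1 RPM in all libraries. Without Col1a1 the sums were 264 and 354 RPM in knockout cells and 293 and 313 RPM in control cells, so they overlap. Of 11 feeder markers tested, 2 (18.2%) were called higher, Col1a1 (log2 change 0.71) and Twist1 (0.81), beside 3.01% of all genes tested. The log2 change was above 0 in 8 of the 11. It was below 0 in 3, Fn1 (-0.12), Col3a1 (-0.02) and Postn (-0.06). The median of the feeder markers was 0.26, beside 0.06 over all genes tested. Sertoli and Leydig cell markers summed to 23.1 and 27.8 RPM in knockout cells and to 22.8 and 22.2 RPM in control cells over 8 genes, with Amh and Cyp17a1 under 0.1 RPM in every library. Blood markers summed to 5.24 and 5.47 RPM in knockout cells and to 4.5 and 4.6 RPM in control cells over 5 genes, with Ptprc under 0.1 RPM. In H3K4me3, 3 of 11 feeder markers (Vim, Lox and Fap), 1 of 4 Sertoli and Leydig markers (Cldn11), the 1 blood marker tested (Fcgr3) and 0 of 11 germ cell markers were called lower, beside 9.9% of all windows tested. The part of other cells in the forkhead values was not tested.

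The FoxO genes were read deeply. Foxo1, which spermatogonial stem cells need, had 157 and 207 RPM of RNA in knockout cells and 160 and 162 RPM in control cells, with a log2 change of 0.16 (SE 0.14). Foxo3, which keeps ovarian follicles dormant, had 120 and 155 RPM in knockout cells and 129 and 136 RPM in control cells. Foxo4 had 36.9 and 39.2 RPM in knockout cells and 39.4 and 37.9 RPM in control cells. In Foxo1, Foxo3 and Foxo4 the knockout libraries lay on both sides of a control library. Foxo6, a FoxO gene best known from brain, had 14.8 and 16.4 RPM in knockout cells, above 10.8 and 11.2 RPM in control cells. Its log2 change of 0.50 (SE 0.11) did not pass limma's test (adjusted p = 0.0682).

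Foxm1, the mitotic regulator, had 63.1 and 78.6 RPM in knockout cells and 77.5 and 80.5 RPM in control cells, with a log2 change of -0.16 (SE 0.12). Foxp1, a repressor active in many tissues, had 93.5 and 106 RPM in knockout cells and 82.2 and 89.9 RPM in control cells. Foxp4 had 31.9 and 39 RPM in knockout cells and 34.6 and 37.4 RPM in control cells. Foxp1 thus lay above both controls in both knockout libraries, with a log2 change of 0.21 that was not called (limma adjusted p = 0.323). Foxk1 had 29.6 and 45.5 RPM in knockout cells and 31.4 and 35 RPM in control cells. Foxk2, like Foxk1 a repressor of autophagy genes, had 32.7 and 39.2 RPM in knockout cells and 32.4 and 32.9 RPM in control cells. Neither passed the test, and the knockout libraries of Foxk1 enclosed the control values.

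Foxj2 had 24 and 30.1 RPM in knockout cells, above 18.9 and 17.3 RPM in control cells, a log2 change of 0.57 (SE 0.14; limma adjusted p = 0.0717). Foxj3 had 49.6 and 64.3 RPM in knockout cells and 62.9 and 60.8 RPM in control cells. Foxr1 had 43.4 and 46.8 RPM in knockout cells and 37.5 and 40.5 RPM in control cells. Of these, Foxj2 and Foxr1 did not overlap between the groups, and none was called. Foxn2 had 20.1 and 24.7 RPM in knockout cells and 22.3 and 21.3 RPM in control cells. Foxn3, a checkpoint repressor, had 10.8 and 16.7 RPM in knockout cells and 12.9 and 12.3 RPM in control cells. All 14 members that reached a mean of 10 RPM were higher in knockout replicate 2 than in knockout replicate 1, beside 9 of 14 in control cells. Without knockout replicate 1, 13 of the 20 members (65.0%) were called higher and 0 lower, beside 37.3% and 10.2% of all genes tested. Without knockout replicate 2, 6 (30.0%) were called higher and 5 (25.0%) lower, beside 20.9% and 22% of all genes.

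**Figure D4:**
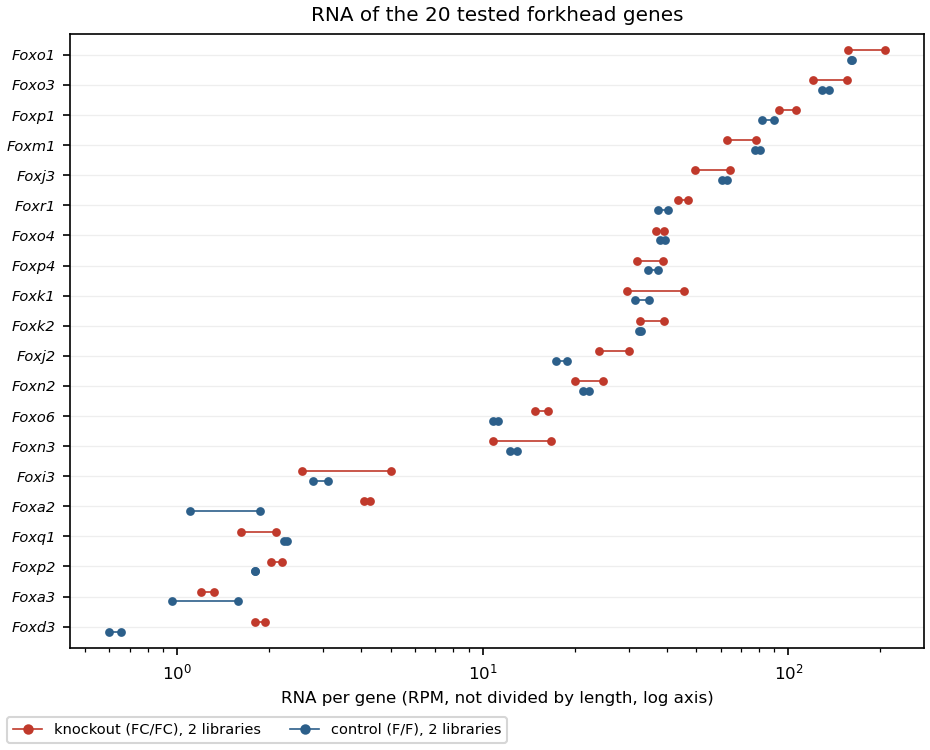
RNA (RPM, log axis, not divided by gene length) is shown for the 20 tested forkhead genes in 2 knockout (red) and 2 control (blue) libraries. Foxa2 and Foxd3 have both knockout libraries well above both control libraries, and positions of different genes on the axis do not compare their transcript numbers.

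The 20 members under the filter had few reads and were not tested in the filtered fit. In 10 of them the ranges of the groups overlap, as in Foxn4, Foxe1, Foxb1 and Foxi1. In Foxf2 both knockout libraries were lower in RPM, from 2 and 1 reads against 2 and 2 in control cells. Examples chosen after their values were seen are Foxj1, Foxd1 and Foxa1. Foxj1 had 58 and 43 reads in knockout cells and 28 and 22 in control cells. Foxd1 had 23 and 28 reads in knockout cells and 10 and 10 in control cells. Foxa1 had 22 and 27 reads in knockout cells and 11 and 7 in control cells. In these examples both knockout libraries were higher also in RPM. Over the 40 members of the RNA table, tested or not, 16 had both knockout libraries above both control libraries, against 27.9% of all 25067 genes, and 2 (Foxq1 and Foxf2) had both below, against 11.9%. Among the 20 tested, 7 (35%) had both knockout libraries above, against 36.2% of the genes tested. Fitted without a filter, limma called 0 of the 40. Foxb2 had no read in any of the 4 RNA libraries, which at a limit of 3 reads allows up to 0.0655 and 0.0749 RPM in knockout cells and 0.078 and 0.0676 RPM in control cells, for counting error only.

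Several members lie beside other genes, and the strand setting of the RNA counts is not stated. Gm12688 starts 1316 bp from Foxd3 on the opposite strand, and its RNA was 1.64 and 1.2 RPM in knockout cells and 0.52 and 0.383 RPM in control cells. Its H3K4me3 was lower by a log2 change of -2.67 (limma adjusted p = 0.0264). The RNA values of Gm12688 and Foxd3 go the same way, and how far reads of one were counted for the other was not tested. The gene 9130206I24Rik, 359 bp from Foxd2, had a log2 H3K4me3 change of -1.44 (adjusted p = 0.0383), close to that of Foxd2, and A530084C06Rik, 1163 bp from Foxq1, had one of -1.18 (adjusted p = 0.0168). Windows this close may share reads. At Foxm1 and 5930416I19Rik, 56 bp apart, neither window was called, with log2 changes of 0.12 and 0.11. Foxd2 and Foxe3 neighbour each other on chromosome 4 and had changes of -1.46 and -1.45. Foxq1, Foxf2 and Foxc1 follow each other on chromosome 13, at 31558170, 31625816 and 31806646, and had changes of -0.59, -2.00 and -0.92.

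Genes upstream and downstream of FoxO and Foxm1 were listed from textbook knowledge, with earlier results of these data known. The shares of these lists are descriptions and were not tested. Of 39 FoxO regulators tested in H3K4me3, 1 was called lower and 0 higher, with a list median of -0.08. It was Sirt1, a deacetylase of FoxO proteins, with 2.09 and 5.61 RPM in knockout cells and 9.85 and 9.93 RPM in control cells (log2 change -1.53; limma adjusted p = 0.0385). Of 40 regulators tested in RNA, 1 was called higher, Sgk1, a kinase that phosphorylates FoxO proteins, with 93.8 and 93.5 RPM in knockout cells and 65.5 and 59.5 RPM in control cells (log2 change 0.58; adjusted p = 0.0307). These counts stand beside 9.9% of all windows called lower in H3K4me3 and 3.01% of all genes called higher in RNA. The regulators had a median RNA change of -0.00, beside 0.06 over all genes tested.

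Among FoxO targets, H3K4me3 was called lower at 2 of 42 (4.76%), Igfbp1 and Lhx1, beside 9.9% of all windows tested. RNA was called higher at 5 of 42 (11.9%), beside 3.01% of all genes tested, and lower at 0. Lhx1 had a log2 H3K4me3 change of -1.03 (limma adjusted p = 0.0498). Igfbp1 had 0 and 13 reads of H3K4me3 in knockout cells and 24 and 51 in control cells. It passed the filter through the control libraries alone, and its fitted change depends on the value set for the library with no read. The median RNA change of the list was 0.12. The cell cycle inhibitor Cdkn1a had 13.9 and 13 RPM of RNA in knockout cells and 8.11 and 9.1 RPM in control cells. The pro-apoptotic gene Bbc3 had 3.52 and 3 RPM in knockout cells and 1.25 and 1.58 RPM in control cells. Klf2, a transcription factor, had 8.41 and 7.14 RPM in knockout cells and 3.22 and 3.38 RPM in control cells. Their log2 changes were 0.65, 1.21 and 1.23. In each, both knockout libraries lay above both controls, beside 36.2% of all genes tested, and the genes were named because they were called. Fbxo32, a ubiquitin ligase of muscle wasting, had a change of 0.54, and Ret, the GDNF receptor of spermatogonial stem cells, had one of 0.62. Cdkn1a and Bbc3 are targets of p53 as well. Ret is also one of the germ cell markers, of which 3 of 12 (Ret, Gfra1 and Nanos2) were called higher in RNA. Of 27 Foxm1 targets tested in RNA, and of 28 tested in H3K4me3, 0 were called in either direction by limma or by limma voom, and 1 was lower in each at an unadjusted p under 0.05. In H3K27me3, 0 of 3 FoxO regulators and 0 of 8 FoxO targets were called, with 1 of each higher at an unadjusted p under 0.05 and 0 called by limma voom.

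The input gave 0 calls in either direction among the 36 windows and among all 15624 by limma, and 0 of the 36 forkhead windows had an unadjusted p under 0.05, beside 2.53% lower and 2.21% higher over all windows. H3K9me3, the mark of heterochromatin, was below its input at all 42 forkhead windows in both control libraries, beside 83.6% of all windows. The log2 ratio ran from -1.15 to -0.15 in replicate 1 and from -1.14 to -0.10 in replicate 2, with medians of -0.68 and -0.64. By this ratio, with 0.5 RPM added to each value, the least depleted members were Foxo4, with -0.15 and -0.10, Foxi1, with -0.30 and -0.34, and Foxp3, with -0.45 and -0.25. Foxo4 had 0.122 and 0.296 RPM of H3K9me3 against 0.189 and 0.355 RPM in its inputs. Foxi1 had 0.292 and 0.158 RPM against 0.472 and 0.331 RPM in its inputs. Foxp3 had 0.073 and 0.0987 RPM against 0.283 and 0.213 RPM in its inputs. These levels are below 1 RPM throughout, and no knockout library of this mark was analysed here. The added 0.5 RPM is above all the values of Foxo4, Foxi1 and Foxp3, so a low input by itself makes a member rank as less depleted.

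Among the promoters counted, CpG content differed between the states, which was not tested. RefSeq promoters were found for 28 members, and for 24 the RefSeq start lay within 200 bp of the start listed in the table. Left out by this limit were Foxp1 and Foxj2 (H3K4me3 only, 13 and 37 CpG dinucleotides), Foxd4 (H3K27me3 only, 12) and Foxj3. Foxp1 thus lies below the range given next for H3K4me3-only members. Bivalent members had a median of 15 CpG dinucleotides in 300 bases (5 to 27, n = 11), H3K4me3-only members 31 (16 to 59, n = 9) and members with neither mark 6 (3 to 8, n = 4), beside 7 over all 32851 promoters. Bivalent promoters held members with few CpG, such as Foxi2 with 5 and Foxi1 with 6, and members with many, such as Foxf2 and Foxl2 with 27 each. The H3K4me3 decrease was called both at Foxb2, with 10, and at Foxf2, as the printed sequences show. Foxj3 had no mark in its window despite 49.6 to 64.3 RPM of RNA, and its RefSeq promoter, with 42 CpG dinucleotides, was left out of these counts because its start lies 2657 bp from the listed one. The sequence GTAAACA, a core recognised by forkhead factors, was searched on both strands (TGTTTAC on the other) and was found in 1 of the 24 promoters, Foxa1, or 4.17%, beside 3.65% of all promoters.

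**Figure D5:**
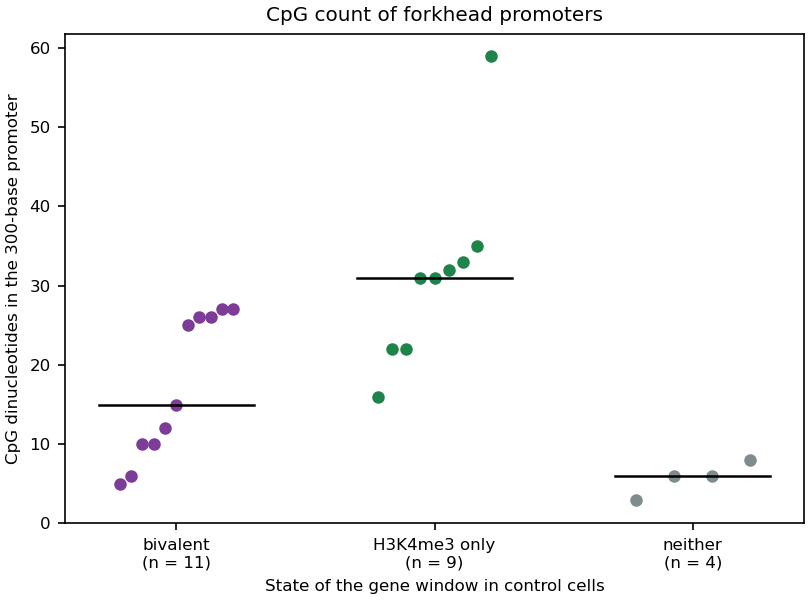
Points give the number of CpG dinucleotides in the 300-base RefSeq promoter of 24 forkhead genes, by the state of the window in control cells, and black lines the medians of 15, 31 and 6. The bivalent promoters spread from 5 to 27, and the 4 promoters drawn with neither mark hold at most 8, without Foxj3, whose RefSeq start lies far from the listed one. Foxp1 and Foxj2 (H3K4me3 only) and Foxd4 (H3K27me3 only) are also left out, for a start over 200 bp from the listed one.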

How the data were processed

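The authors deposited log2 RPM values (log2 of reads scaled to the mapped reads) for 1 window per gene in 16 chromatin libraries and per gene in 4 RNA libraries, per the file headers and the values themselves. Window values were not divided by input, RNA was not divided by length, and window size and strand setting are not given in the sources used here. CASAVA 1.8, Trim Galore 0.4.0, Bowtie 1.1.1, TopHat2 2.0.14 and build mm10 are named in the submitters' processing notes, without their roles. The RNA kit was directional and H3K9me3 libraries were made with another kit, per the labels' protocols.

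In each library, 2 to the power of a deposited log2 value was a multiple of a fixed step, which gave the mapped reads, and 100.0% of values were whole reads within 0.1. Genes with no read stand at 0.9 of a step. Per library, 1 read was worth 0.0157 to 0.2611 RPM. Depth limits the H3K4me3 values of knockout replicate 1 most. That library also had the lowest share of reads in windows among H3K4me3 libraries, and how far this lowers its values was not tested.

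Marks, input and RNA were each fitted over all genes with limma 3.58.1 in R 4.3.3 (mean-variance trend, two-sided, Benjamini-Hochberg adjustment, call at an adjusted p under 0.05) on the deposited log2 values, without a replicate block. The filter was a mean of 1 RPM for windows and a mean log2 value of 0 for RNA. The fits were also run on simulated data with the same added spread in every library. Those data held no difference between libraries in the share of reads in windows, so they do not check calls that depend on it. Alternatives were median centring, quantile normalization, no filter, a pseudocount of 0.5 RPM, limma voom on recovered reads, a replicate block, division by input, other state thresholds and leaving out each library.

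Members, gene lists and named genes were chosen with earlier results of these data known. Values in every library are given for members that were called, that had a mean RNA of at least 10 RPM, that changed state, or that were among the 3 highest in H3K27me3 or H3K9me3 over input; a few others are given as examples chosen after their values were seen. Lists of FoxO regulators, FoxO targets, Foxm1 targets, and markers of germ cells, feeder fibroblasts, Sertoli and Leydig cells and blood were counted. Counts and medians cover all members, and the values of 1 member are not reported here or drawn.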

Additional observations from a re-analysis of the deposited data

How the results depend on the processing

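Of 36 forkhead windows, 8 were called lower in H3K4me3. After division by input that count was 2 (5.56%, beside 2.05% of all windows), Foxd2 and Foxa1. Without a filter it was 5 of 42 (11.9%, beside 3.89%). Under quantile normalization it was 1 (2.78%), a share below the 3.81% of all windows. When a library was left out, the forkhead median log2 change ran from -0.81 to -0.37. With median centring 9 were called lower (25.0%, beside 9.15% of all windows) and 1 higher (2.78%, beside 4.11%). The median over all windows, -0.26 as deposited, was 0.03 with median centring and 0.01 with quantile normalization, and the forkhead median stayed below it at -0.27 and -0.21. With the replicate block 15 windows were called lower in H3K4me3 (41.7%, beside 25.8% of all), 4 higher in H3K27me3 (16.7%, beside 25.1%) and 4 of 20 higher in RNA (beside 9.16%: Foxa2, Foxd3, Foxo6 and Foxj2). The labels do not say what a replicate number shares. Over genes, deviations of same-numbered libraries had r = 0.15 in H3K4me3, 0.06 in H3K27me3 and 0.09 in RNA. This r leaves out a shift common to all genes. Replicate 2 was above replicate 1 in H3K4me3 at 33 of 36 members in knockout cells and at 32 in control cells. In RNA it was above at 19 of 20 and 13 of 20. In H3K27me3 replicate 1 was above replicate 2 at 23 of 24 members in knockout cells and 22 of 24 in control cells. In H3K27me3, median centring called 2 windows, both lower (Foxi1 and Foxb2), and leaving out a library called 0. In RNA, 0 genes were called without a filter, 0 under quantile normalization and 2 to 13 when a library was left out. A fit that leaves out a library takes its spread from the other group's pair. At looser state thresholds (1 and 0.5), 20 windows were bivalent in knockout cells and 20 in control cells, and 6 differed in state. At stricter ones (2 and 1.5), 6 were bivalent in knockout cells, 9 in control cells, and 11 differed in state. The cause of these changes was not tested.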
